A study of Mus musculus with 42 samples.

Results

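The GATA transcription factors are zinc finger proteins that bind DNA at sites built on the letters GATA, and the mouse genome encodes 6 of them, Gata1 to Gata6. Gata1, Gata2 and Gata3 are known mainly for their work in blood, and Gata2 and Gata3 also act in trophoblast, whereas Gata4, Gata5 and Gata6 are known for endoderm and heart. In the early embryo GATA6 and GATA4 specify the primitive (extraembryonic) endoderm, and the same pair is switched on again in the primitive streak, where mesoderm and definitive endoderm arise. Each of the 6 genes was represented by 1 probe with a RefSeq accession, so that 6 genes are described of 22278 measured.

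RNA was hybridised to 42 single-colour Agilent arrays, 3 for each of 14 groups. All cells came from 1 line of mouse embryonic stem cells (mESCs) that carries fluorescent reporters knocked in at Gsc (GFP) and Hhex (RedStar), so every group rests on a single line. Untreated groups were mESCs in medium with LIF (ESC), the unsorted culture on day 2 of differentiation to anterior definitive endoderm (d2), and cells sorted by the reporters: Gsc-negative and Gsc-positive on day 3 (d3G-, d3G+) and day 4 (d4G-, d4G+), Gsc-negative, Gsc-low and Gsc-high on day 5 (d5G-, d5Glow, d5Ghigh), and Gsc-positive cells without or with Hhex reporter on day 6 (d6G+H-, d6G+H+). In a separate series, day 6 cultures had received DMSO (Control), the EZH2 inhibitor EPZ6438 at 2.5 µM during differentiation (ADE_EPZ), or EPZ6438 as ESCs before differentiation in DMSO (ES_EPZ). The labels number the arrays of a group 1 to 3 without naming separate cultures, so p-values measure the spread between these arrays.

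Values are log2 intensities, and a gene was called when its limma adjusted p was at most 0.01 and its log2 difference at least 1.5 in size. The scanner software marked 24459 to 40398 of 55681 probes per array as well above background. Levels are compared only within a gene, because each probe has its own response. Sorted populations are mixtures of RNA from many cells, and fewer cells of a type cannot be told apart from less RNA per cell. Summed intensity of 5 definitive endoderm markers (Sox17, Foxa2, Cer1, Hhex, Cxcr4) rose from 792 to 1810 in d3G- to 85600 to 95500 in d6G+H+. By contrast 5 blood markers summed to 183 to 260 in every untreated population from d3 on. Of these 5, 4 were above background on all arrays of d5Ghigh, 1 in d6G+H- and 2 in d6G+H+, whereas Hba-x was below background in d6. Replicate 3 of every untreated group was hybridised on 2 slides that held no replicate 1 or 2. On these slides Gata5 was lowest in 11 of 11 groups, Gata3 in 10 and Gata4 in 8, with median differences from the other arrays of -0.53, -0.94 and -0.62, whereas Gata1 was lowest in 0 and Gata6 in 5.

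**Figure D1:**
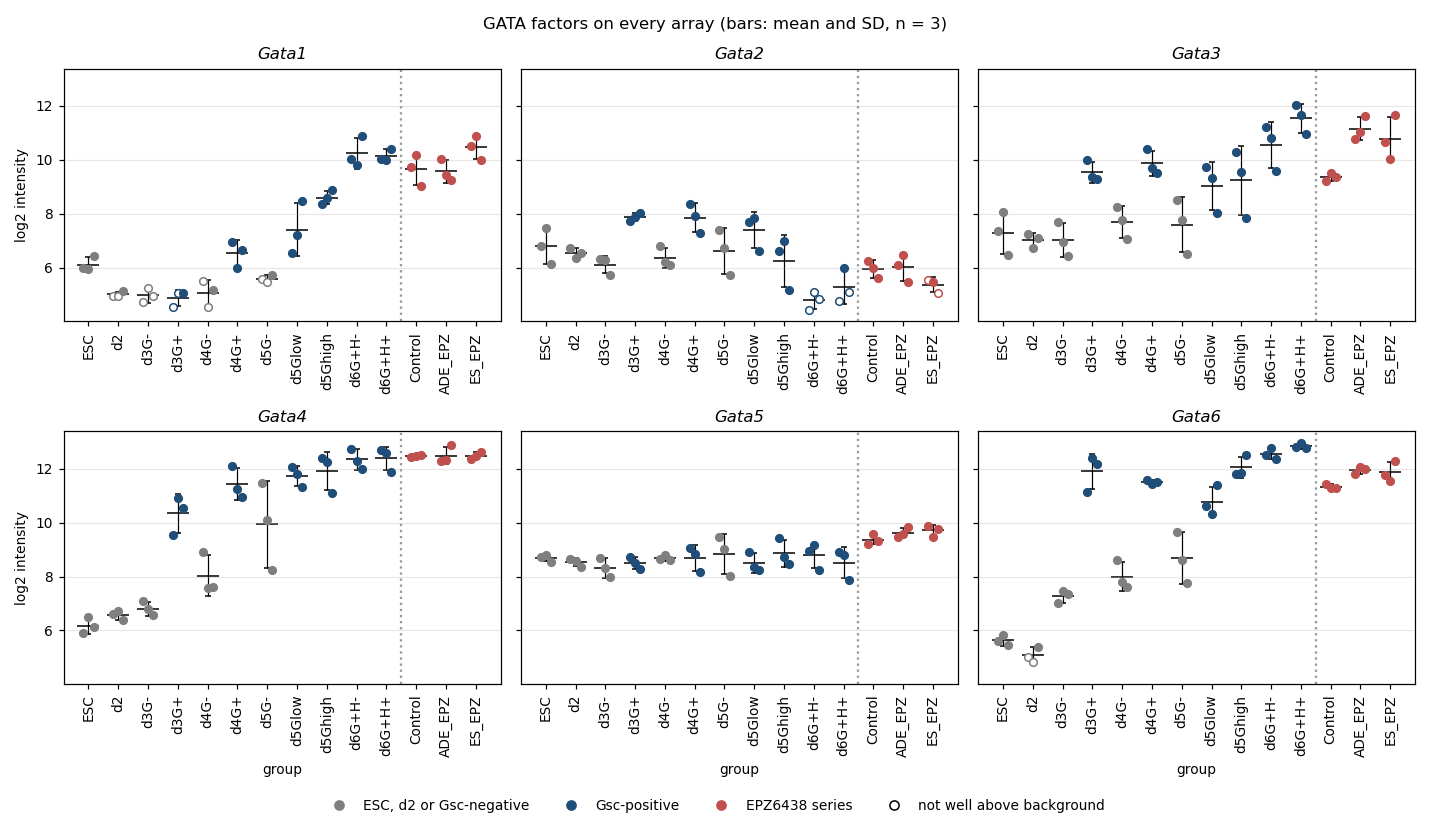
Log2 intensity of each GATA gene (y axis) on every array of the 14 groups (x axis), with the mean and SD of 3 arrays; hollow points were not well above background. Gata6 and Gata4 are high in the Gsc-positive populations from d3G+ on and in the EPZ6438 series. Gata3 is highest in d6G+H+, Gata1 in d6 and the EPZ6438 series, and Gata2 in d3G+ and d4G+. Gata5 spans 0.53 over the untreated group means.

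Gata6, which drives cells towards primitive endoderm when forced in mESCs, showed the widest span of the family, 7.77 between its lowest and highest untreated group means. It read 5.60, 5.85 and 5.45 in ESC and 5.01, 4.82 and 5.40 in d2, where only 1 of 3 arrays was above background. In d3G+ it read 11.15, 12.39 and 12.17, against 7.01, 7.46 and 7.35 in d3G-. The d3 gates did not overlap, and every d3G+ array lay above the highest array of any Gsc-negative population. Gata6 in d3G+ was 77.1-fold its ESC level (log2 difference 6.27 ± 0.33, SE; limma adjusted p = 1.2e-15).

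From there Gata6 stayed high in reporter-positive cells. It read 11.57, 11.43 and 11.49 in d4G+, 11.81, 11.82 and 12.51 in d5Ghigh, 12.52, 12.76 and 12.36 in d6G+H- and 12.80, 12.96 and 12.77 in d6G+H+. The d5Glow arrays, at 10.62, 10.33 and 11.39, fell below every d4G+ array. The d6G+H+ arrays all lay above the d6G+H- arrays, but the difference of 0.30 ± 0.33 was not called (limma adjusted p = 1.00). In order of means the reporter-positive populations ran d5Glow, d4G+, d3G+, d5Ghigh, d6G+H- and d6G+H+, and the ranges of d4G+ and d3G+, d3G+ and d5Ghigh, and d5Ghigh and d6G+H- overlapped.

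Gata6 was also above ESC in the Gsc-negative cells, at 7.27 ± 0.24 (SD, n = 3) in d3G-, 8.0 ± 0.53 in d4G- and 8.68 ± 0.96 in d5G-. All 3 populations were called above ESC, by 1.64, 2.37 and 3.05 (limma adjusted p = 0.000764, 2.7e-06 and 1.68e-08). The d3G- call was lost with a normexp offset of 50 and without background correction. The d5G- arrays were spread widely, at 9.66, 8.63 and 7.75.

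Gata4, which partners GATA6 in endoderm and heart, was likewise high in the reporter-positive populations. ESC read 5.89, 6.50 and 6.12, d2 6.62, 6.72 and 6.38, and d3G- 7.08, 6.81 and 6.56. In d3G+ Gata4 read 9.54, 10.93 and 10.54, and in d4G+ 12.09, 11.25 and 10.96. The ranges of d3G+ and d4G+ did not overlap, whereas Gata6 had overlapping ranges in the same populations. Later populations stayed near the d4G+ level, at 12.05, 11.81 and 11.31 in d5Glow, 12.39, 12.23 and 11.08 in d5Ghigh, 12.74, 12.30 and 11.99 in d6G+H- and 12.68, 12.58 and 11.88 in d6G+H+. All neighbours in the order of means from d4G+ upwards had overlapping ranges. Relative to ESC the gene was 18.0-fold higher in d3G+, 38.4-fold in d4G+ and 74.0-fold in d6G+H+.

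The Gsc-negative cells gained Gata4 too, with d4G- at 8.91, 7.58 and 7.60 and d5G- at 11.48, 10.08 and 8.23. The highest d5G- array therefore reached the level of d5Glow, and the d5G- SD of 1.63 was the largest for any member in any group. The rise over ESC was called in d4G- (1.86 ± 0.47, limma adjusted p = 0.00728) and d5G- (3.76 ± 0.47, limma adjusted p = 3.54e-07). The d4G- call was lost when ESC replicate 1, ESC replicate 3 or d4G- replicate 1 was left out. It was also lost with a normexp offset of 50, without background correction, and with only the compared groups or the same series fitted. With only the compared groups fitted the d5G- call was lost as well (limma adjusted p = 0.016).

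Gata3, known for trophoblast and T cell fate, was high in the reporter-positive populations. ESC read 7.35, 8.07 and 6.48, d2 7.24, 6.73 and 7.09, and d3G- 7.69, 6.97 and 6.44. In d3G+ it read 10.00, 9.35 and 9.29 and in d4G+ 10.40, 9.70 and 9.51. Both were called above ESC, by 2.24 ± 0.54 and 2.57 ± 0.54 (limma adjusted p = 0.00258 and 0.000527), the d3G+ call being lost without ESC replicate 3 or d3G+ replicate 1. The d5 arrays were spread, with d5Glow at 9.72, 9.33 and 8.04 and d5Ghigh at 10.31, 9.56 and 7.84. The highest levels were on d6, at 11.22, 10.82 and 9.59 in d6G+H- and 12.03, 11.65 and 10.96 in d6G+H+. The differences of d5Glow (-0.84 ± 0.54) and d5Ghigh (-0.63 ± 0.54) from d4G+ and of d6G+H- from d5Ghigh (1.31 ± 0.54) were not called. The d6G+H+ cells held 18.9-fold the ESC level, and their difference of 1.00 ± 0.54 from d6G+H- was not called. Gata3 stayed at 7.70 ± 0.59 in d4G- and 7.60 ± 1.01 in d5G-, where the differences from ESC were 0.40 and 0.30 and were not called.

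Gata2, a regulator of blood stem cells that also acts in trophoblast, was highest in d3G+ and d4G+. It read 6.80, 7.48 and 6.13 in ESC, 6.74, 6.35 and 6.53 in d2 and 6.33, 6.28 and 5.75 in d3G-. It then read 7.73, 7.90 and 8.03 in d3G+ and 8.35, 7.93 and 7.30 in d4G+. By d5 it read 7.69, 7.86 and 6.64 in d5Glow but 6.64, 6.98 and 5.17 in d5Ghigh. On d6 Gata2 was above background on 0 of 3 d6G+H- arrays (4.44, 5.10 and 4.86) and on 1 of 3 d6G+H+ arrays (4.76, 5.99 and 5.12). It was at least 3.58-fold lower in d6G+H- than in ESC (log2 difference -2.01 ± 0.41, limma adjusted p = 0.000258). The d6G+H+ difference of -1.52 ± 0.41 (limma adjusted p = 0.0048) lay at the threshold, and leaving out either ESC replicate 1 or 2, or d6G+H+ replicate 1 or 3, ended that call. A normexp offset of 50 (-0.95 ± 0.28), no background correction (-1.14 ± 0.33) and slide as a fixed (-1.43 ± 0.37) or random block ended it too. So did fitting only the compared groups (limma adjusted p = 0.0228). The d3G+ and d4G+ differences from ESC, 1.08 and 1.05, were not called.

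Gata1, the master regulator of red cell and megakaryocyte development, ran opposite to Gata2 at late times. ESC read 5.98, 5.94 and 6.43 with all 3 arrays above background. It read 4.96, 4.94 and 5.14 in d2, 4.72, 5.26 and 4.96 in d3G- and 4.54, 5.05 and 5.08 in d3G+. At most 1 of 3 arrays of these groups was above background, and 0 of 3 in d3G-. Gata1 then read 6.95, 5.99 and 6.65 in d4G+, 6.54, 7.20 and 8.49 in d5Glow, 8.36, 8.58 and 8.87 in d5Ghigh, 10.03, 9.80 and 10.89 in d6G+H- and 10.02, 10.01 and 10.42 in d6G+H+. The d5Ghigh and d6 ranges did not overlap, and the ranges of both d6 populations did. In d6G+H+ the level was 16.4-fold that of ESC (4.03 ± 0.35, limma adjusted p = 3.16e-11). Gsc-negative cells stayed low, at 5.08 ± 0.48 in d4G- and 5.59 ± 0.15 in d5G-.

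Gata5, which acts in endocardium and endoderm, was above background on all 42 arrays and changed little. Its untreated group means ran from 8.32 ± 0.37 in d3G- to 8.86 ± 0.49 in d5Ghigh, with overlapping ranges between all neighbours in that order. No untreated population differed from ESC by more than 0.36, and in these 10 comparisons it was called 0 times by limma and had an unadjusted p under 0.05 in 0.

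Promoter sequence is shown for Gata1 and Gata3, which stood above ESC on d6, and for Gata2, which stood below it. Polycomb repressive complex 2, the target of EPZ6438, is known to occupy promoters rich in CpG. Whether CpG content bears on the levels of these genes was not tested. The 250 bases before the RefSeq start (build GRCm38.p6, 5′ to 3′ in the direction of transcription) are printed, with each CG in capitals. RefSeq promoters were matched for 4 of the 6 members. For Gata1 the window was chrX:7967911-7968160 on the minus strand, for Gata2 chr6:88193641-88193890 on the plus strand and for Gata3 chr2:9878601-9878850 on the minus strand.
Gata1: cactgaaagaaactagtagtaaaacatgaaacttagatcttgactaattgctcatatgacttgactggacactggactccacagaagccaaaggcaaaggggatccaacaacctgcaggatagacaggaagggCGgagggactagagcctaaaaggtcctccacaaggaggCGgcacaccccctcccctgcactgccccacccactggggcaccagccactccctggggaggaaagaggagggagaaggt
Gata2: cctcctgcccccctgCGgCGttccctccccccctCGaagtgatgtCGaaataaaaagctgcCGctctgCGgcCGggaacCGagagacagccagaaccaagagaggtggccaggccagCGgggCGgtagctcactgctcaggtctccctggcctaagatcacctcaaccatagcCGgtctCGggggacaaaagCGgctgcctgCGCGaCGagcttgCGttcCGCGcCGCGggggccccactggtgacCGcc
Gata3: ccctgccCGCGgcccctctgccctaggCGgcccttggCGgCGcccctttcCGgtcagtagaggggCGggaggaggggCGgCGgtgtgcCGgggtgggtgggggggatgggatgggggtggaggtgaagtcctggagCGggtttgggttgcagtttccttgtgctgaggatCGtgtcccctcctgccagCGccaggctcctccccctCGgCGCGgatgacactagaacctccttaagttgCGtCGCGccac
The Gata1 window held 2 CG pairs, fewer than the median of 6 over 32851 RefSeq promoter windows, and only 18.8% of windows held fewer. The Gata2 window held 22 and the Gata3 window 19, and 85.2% and 80.3% of windows held fewer. A second Gata2 start, at chr6:88198414-88198663, held 24, and the Gata5 window, chr2:180334680-180334929, held 22. The motif GATA, read on both strands (GATA or TATC), occurred 1 time in the Gata1 window, 132 bases before the start, and in none of the other windows. By comparison 53.6% of all windows held it.

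At d3 the Gsc-positive gate separated most of the family. Of the 6 members 4 were called higher in d3G+ than in d3G-, where 1.75% of all genes were called in either direction, 0.673% higher and 1.07% lower. Gata6 was 24.7-fold higher (4.63 ± 0.33, limma adjusted p = 1.04e-10) and Gata4 11.5-fold higher (3.52 ± 0.47, limma adjusted p = 4.83e-06). Gata3 was 5.70-fold higher (2.51 ± 0.54, limma adjusted p = 0.00325) and Gata2 3.40-fold higher (1.76 ± 0.41, limma adjusted p = 0.00698). For these 4 genes every d3G+ array lay above every d3G- array, 9 of 9 array pairs. Within the 2 slides that held both gates the differences were 4.82 and 4.93 for Gata6, 3.98 and 4.13 for Gata4, 2.37 and 2.85 for Gata3 and 1.62 and 2.28 for Gata2. Gata1 (-0.09 ± 0.35) and Gata5 (0.18 ± 0.30) did not pass, with confidence intervals of -0.80 to 0.62 and -0.43 to 0.79. Gata1 was above background on 0 of 3 d3G- and 1 of 3 d3G+ arrays, so its d3 difference compares readings near background. The Gata2 call was lost when any of the 6 arrays was left out (limma adjusted p from 0.0143 to 0.0482), and the Gata3 call without d3G- replicate 2 or 3 or without d3G+ replicate 1 or 2.

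At d4 the same members lay higher in d4G+, and Gata1 was higher as well. Called were 2 of 6, Gata6 (3.50 ± 0.33, limma adjusted p = 2.27e-08) and Gata4 (3.40 ± 0.47, limma adjusted p = 1.26e-05), against 2.19% of all genes. Gata3 (2.17 ± 0.54, limma adjusted p = 0.0118), Gata2 (1.49 ± 0.41, limma adjusted p = 0.0272) and Gata1 (1.45 ± 0.35, limma adjusted p = 0.00838) each missed 1 or both limits, although all 9 array pairs of each had the same sign. Same-numbered replicates deviated together at d4, and with the replicate number as a block Gata3 was called (2.17 ± 0.32, limma adjusted p = 3.96e-05). With slide as a fixed block both Gata3 (2.14 ± 0.38, limma adjusted p = 5e-04) and Gata2 (1.51 ± 0.36, limma adjusted p = 0.00819) were called, which makes 4. On the 2 slides that held both gates the differences were 1.45 and 2.63 for Gata3, 1.13 and 2.13 for Gata2, and 0.49 and 2.39 for Gata1. None of the 6 gate differences was shown to change from d3 to d4: the interaction was 1.54 ± 0.50 for Gata1 and -1.13 ± 0.46 for Gata6, 0 of 6 were called by limma, 2 of 6 (Gata1 and Gata6) had an unadjusted p under 0.05, and 0% of all genes were called.

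**Figure D2:**
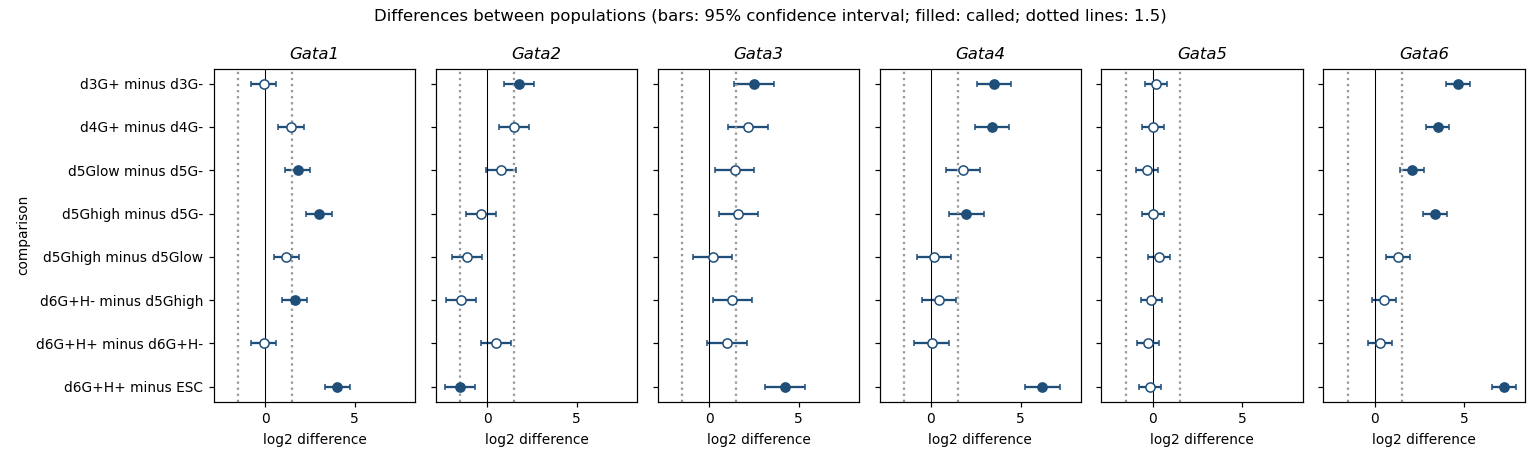
Log2 difference between populations (x axis) for each comparison (y axis) and gene, with 95% confidence intervals from the limma fit; filled points were called and dotted lines mark the fold threshold. The Gata6 gate difference runs from 4.63 at d3 to 3.37 for d5Ghigh over d5G-, that of Gata1 from -0.09 to 3.01.

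At d5 Gata1 joined Gata6 among the members called above d5G-. In d5Glow, Gata6 (2.10 ± 0.33, limma adjusted p = 0.000247) and Gata1 (1.82 ± 0.35, limma adjusted p = 0.00291) were called, 2 of 6 against 0.718% of all genes, and Gata4 was not (1.79 ± 0.47, limma adjusted p = 0.0407). In d5Ghigh, Gata6 (3.37 ± 0.33, limma adjusted p = 1.54e-08), Gata1 (3.01 ± 0.35, limma adjusted p = 4.35e-07) and Gata4 (1.97 ± 0.47, limma adjusted p = 0.00835) were called, 3 of 6 against 2.47%. Both comparisons share the d5G- arrays, and in each 4 of 6 members (these 3 and Gata3) had an unadjusted p under 0.05. With only the compared groups fitted, Gata6 was not called in d5Glow (limma adjusted p = 0.28) or d5Ghigh (limma adjusted p = 0.019). These fits also lost the Gata1 call in d5Glow and the Gata4 call in d5Ghigh (limma adjusted p = 0.389). Only Gata1 in d5Ghigh stayed called. Gata1 was above background on 1 of 3 d5G- arrays, so the size of its differences from d5G- is uncertain. The Gata1 call in d5Glow was lost without d5G- replicate 2 or 3 or without d5Glow replicate 3. It was also lost with a normexp offset of 50 and with scaling by the 75th percentile. The Gata4 call in d5Ghigh was lost without d5G- replicate 2 or 3 or d5Ghigh replicate 1 or 2, and with slide as a fixed block (1.92 ± 0.46, limma adjusted p = 0.0103). Scaling by the 75th percentile and fitting only the same series (limma adjusted p = 0.0248) lost it as well.

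Between the gates of d5 that carry Gsc, 0 of 6 members were called by limma (d5Ghigh against d5Glow), where 0.251% of all genes were. By unadjusted p, 3 of 6 were under 0.05: Gata6 (1.27 ± 0.33, limma adjusted p = 0.0761) and Gata1 (1.19 ± 0.35, limma adjusted p = 0.15) lay higher in d5Ghigh, and Gata2 (-1.13 ± 0.41, limma adjusted p = 0.313) lower. Gata6 was higher in 9 of 9 array pairs, and Gata1 and Gata2 kept their sign in 8. Without d5Glow replicate 3, whose Gata1 of 8.49 lay within the d5Ghigh range, Gata1 was called (1.73 ± 0.33, limma adjusted p = 0.00409). Gata3 and Gata4 differed by 0.21 and 0.17, with intervals of -0.90 to 1.31 and -0.79 to 1.14. Against d4G+, Gata1 in d5Ghigh was 4.21-fold higher (2.07 ± 0.35, limma adjusted p = 0.000302), 1 of 6 members called against 1.09% of all genes, a call lost with only the compared groups fitted (limma adjusted p = 0.0211). Gata2 was lower there by -1.60 ± 0.41 (limma adjusted p = 0.0208) and was called with the replicate number as a block (-1.60 ± 0.33, limma adjusted p = 0.00248), where same-numbered replicates deviated together. In d5Glow against d4G+, limma called 0 of 6 members, 2 of 6 (Gata1 and Gata6) had an unadjusted p under 0.05, and 0.13% of all genes were called.

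The replicates of d5 differed in their marker sums, and the levels of the members differed between replicates too. Summed mesoderm markers (Mesp1, Tbx6, Kdr, Hand1, Foxf1) were 12000, 4920 and 2900 in replicates 1, 2 and 3 of d5G-, 15000, 11500 and 5830 in d5Glow and 10900, 8020 and 2480 in d5Ghigh. Summed definitive endoderm markers ran the other way, at 2140, 3820 and 9250 in d5G-, 3540, 5240 and 21000 in d5Glow and 17100, 21000 and 62400 in d5Ghigh. Replicate 3 thus held the least mesoderm signal and the most definitive endoderm signal in each gate. The sum of the trophoblast list was also lowest there, at 5290, 3580 and 1160 in d5G-, 2830, 2370 and 719 in d5Glow and 1200, 945 and 468 in d5Ghigh. Of this list Tpbpa was below background on all d5 arrays. Cdx2 was called above ESC in d5G- (3.74) and d5Glow (2.78), and Plac1 in d5Glow (2.76). Elf5 was called higher in d5Ghigh than in d5Glow (2.06), where the sum was lower. The sum is therefore not taken as a measure of trophoblast cells. ESC markers were highest in replicate 3, from 4950 to 15100 in d5G-, 1450 to 5340 in d5Glow and 1210 to 2270 in d5Ghigh, as were epiblast markers. Gata2, Gata3 and Gata4 were lowest in replicate 3 of all 3 gates, Gata1 was highest there in all 3, and Gata6 was highest there in d5Glow and d5Ghigh but lowest in d5G-. Replicate 3 also lay on slides of its own, and the part of cell composition and of slide in these differences was not tested.

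**Figure D3:**
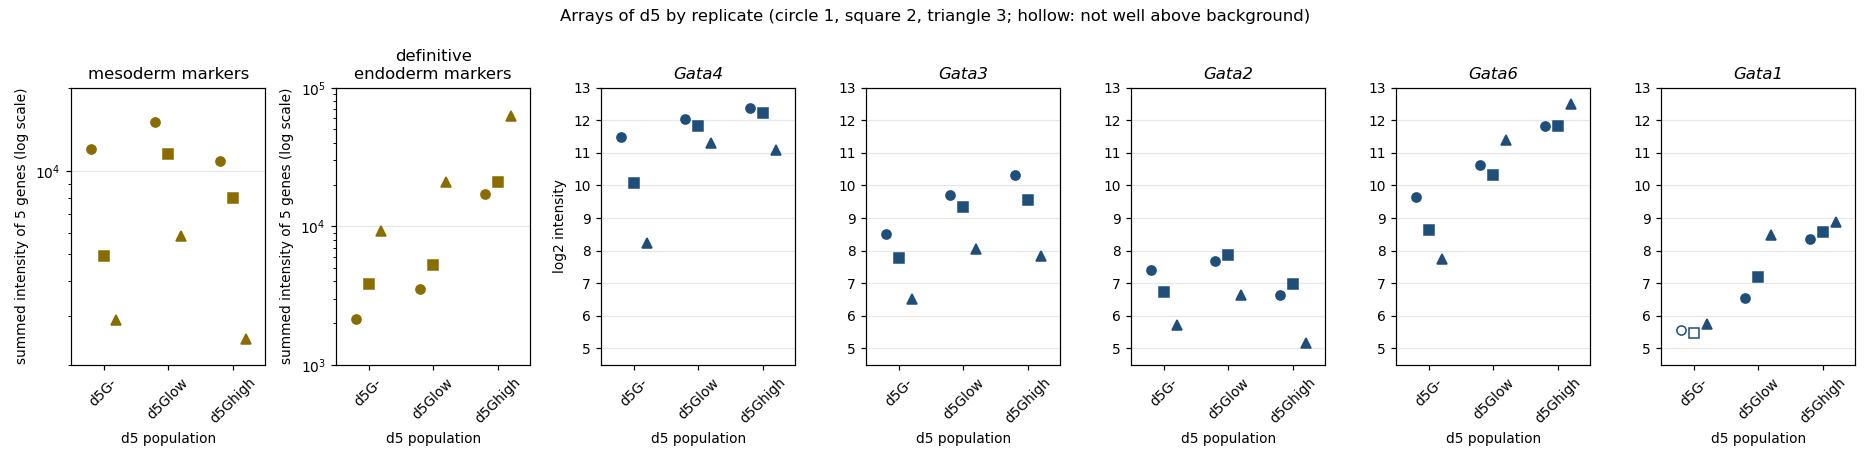
Summed intensity of 5 mesoderm and 5 definitive endoderm markers (log scale) and log2 intensity of 5 GATA genes (y axes) on each array of d5G-, d5Glow and d5Ghigh (x axes), with a symbol per replicate. Replicate 3 is lowest for mesoderm markers, Gata4, Gata3 and Gata2, and highest for definitive endoderm markers and Gata1, in all 3 gates.

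On d6, 4 members were called higher and 1 lower in d6G+H+ than in ESC, against 10.7% of all genes called in either direction, 5.58% higher and 5.16% lower. Gata6 was 148-fold higher (7.21 ± 0.33, limma adjusted p = 6.2e-18) and Gata4 74.0-fold higher (6.21 ± 0.47, limma adjusted p = 1.69e-12), and Gata3 and Gata1 were raised by 4.24 and 4.03. Gata2 was the member called lower, and the Gata5 difference of -0.16 had an interval of -0.77 to 0.45. The d6G+H- cells gave the same 4 and 1 against the same ESC arrays, with 9.83% of all genes called. Between d5Ghigh and d6G+H-, Gata1 rose by 1.64 ± 0.35 (limma adjusted p = 0.00235), 1 of 6 members against 2.1% of all genes, and the call was lost without d5Ghigh replicate 1 or 2 or d6G+H- replicate 3. Gata2 read -1.46 ± 0.41 in that comparison (limma adjusted p = 0.0246), at least 2.46-fold lower, and was called with slide as a fixed block (-1.51 ± 0.35, limma adjusted p = 0.00524). Between the Hhex gates no member was called: limma called 0 of 6 and 0% of all genes between d6G+H+ and d6G+H-, with 0 of 6 members and 1312 of 22278 genes at an unadjusted p under 0.05. Gata3 and Gata6 were nevertheless higher in d6G+H+ in all 3 pairs of same-numbered arrays, and the Gata6 ranges did not overlap. In this fit without blocks the interval of Gata3 was -0.11 to 2.11. No alternative setting, the replicate block among them, called Gata3 there.

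The remaining comparisons with ESC fill in the course. In d2, limma called 0 of 6 members, with 1 of 6 (Gata1, -1.10 ± 0.35, limma adjusted p = 0.0525) at an unadjusted p under 0.05 and 1.64% of all genes called. In Gsc-negative cells 1 of 6 was called at d3, 2 at d4 and 2 at d5, all of them Gata6 or Gata4, against 2.32%, 3.11% and 4.19% of all genes. In reporter-positive cells 3 were called at d3 and 3 at d4 (Gata3, Gata4 and Gata6), 2 in d5Glow (Gata4 and Gata6) and 4 in d5Ghigh (those 3 and Gata1), against 6.36%, 7.14%, 7.47% and 7.9%. All these comparisons share the ESC arrays. The Gata3 call in d5Ghigh (1.94 ± 0.54) was lost without ESC replicate 1 or 3 or d5Ghigh replicate 1 or 2. The Gata3 difference in d5Glow, 1.73 ± 0.54, was not called (limma adjusted p = 0.0208), but was with slide as a fixed block (1.85 ± 0.42, limma adjusted p = 0.0016).

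The EPZ6438 series asked how the family responds when EZH2, the methyltransferase of Polycomb repressive complex 2, is inhibited during or before differentiation. Gata3 read 9.21, 9.51 and 9.35 in Control, 10.78, 11.05 and 11.64 in ADE_EPZ and 10.68, 10.04 and 11.65 in ES_EPZ. Every treated array lay above every Control array. The difference was 3.49-fold in ADE_EPZ (1.80 ± 0.54, limma adjusted p = 0.0269) and 2.70-fold in ES_EPZ (1.43 ± 0.54, limma adjusted p = 0.201), and neither was called. Each of 3 slides held 1 array of each regimen, and on these slides Gata3 differed by 1.43 to 2.14 in ADE_EPZ and by 0.83 to 2.15 in ES_EPZ. With slide as a fixed block Gata3 was called in ADE_EPZ (1.80 ± 0.36, limma adjusted p = 0.000832) but not in ES_EPZ (1.43 ± 0.36, limma adjusted p = 0.0229).

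The other members moved less. By limma 0 of 6 were called in ADE_EPZ, against 2.65% of all genes, and 0 of 6 in ES_EPZ, against 0.404%. At an unadjusted p under 0.05 were 1 of 6 in ADE_EPZ (Gata3) and 2 of 6 in ES_EPZ (Gata1 and Gata3). Both comparisons share the Control arrays. Gata6 read 11.44, 11.27 and 11.27 in Control, 11.79, 12.05 and 11.98 in ADE_EPZ and 11.76, 11.53 and 12.28 in ES_EPZ. All treated arrays were again above Control, by 0.61 ± 0.33 and 0.53 ± 0.33 (limma adjusted p = 0.308 and 0.565). Gata4 was level at 12.46 ± 0.03 in Control, 12.48 ± 0.32 in ADE_EPZ and 12.48 ± 0.12 in ES_EPZ (SD, n = 3), with an interval of -0.94 to 0.99 for ADE_EPZ.

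Gata1 read 9.73, 10.18 and 9.05 in Control, 10.05, 9.43 and 9.26 in ADE_EPZ and 10.52, 10.89 and 9.99 in ES_EPZ, with overlapping ranges. Its ES_EPZ difference was 0.82 ± 0.35 (limma adjusted p = 0.289). Gata2 read 6.26, 5.98 and 5.63 in Control, 6.10, 6.49 and 5.48 in ADE_EPZ and 5.56, 5.49 and 5.05 in ES_EPZ, where 1 of 3 arrays was above background. Its ES_EPZ arrays all lay below Control, by 0.59 on average, which was not called. Gata5 was at 9.37 ± 0.18, 9.63 ± 0.18 and 9.71 ± 0.21. Between ADE_EPZ and ES_EPZ limma called 0 of 6 members and 0.121% of all genes, and 1 of 6 members (Gata1, -0.89 ± 0.35) had an unadjusted p under 0.05.

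Cell markers moved in the same series. Definitive endoderm markers summed to 17400 to 25300 in Control, 49100 to 68400 in ADE_EPZ and 42400 to 64400 in ES_EPZ, and mesoderm markers to 3320 to 4510, 2640 to 3030 and 3160 to 3850. Of the 5 definitive endoderm markers only Hhex was called in ADE_EPZ (2.23 ± 0.40), and none in ES_EPZ. Primitive streak markers summed to 19500 to 22700, 15700 to 22300 and 19600 to 24000, with Mixl1 called lower in ADE_EPZ (-3.34 ± 0.34) and ES_EPZ (-1.72 ± 0.34). ESC markers summed to 947 to 1530, 1740 to 2200 and 869 to 1940, with Zfp42 called higher in ADE_EPZ (1.51 ± 0.34). Epiblast markers summed to 58000 to 73400, 118000 to 133000 and 96600 to 111000, and neural markers to 1620 to 2190, 2440 to 2880 and 2940 to 5490. None of the 5 epiblast or 5 neural markers was called in either regimen. The neural markers Pax6 and Neurod1 were below background on all treated arrays. Visceral endoderm markers summed to 578 to 764 in Control and 1000 to 1090 in ADE_EPZ, with ES_EPZ at 445 to 1050. Gata3 and the definitive endoderm, epiblast and neural sums were thus all higher on every treated array than on any Control array, and the part of cell composition in the Gata3 values was not tested. The Control level of Gata3 (9.36 ± 0.15) stood below the d6G+H- (10.54 ± 0.85) and d6G+H+ (11.54 ± 0.55) levels of the untreated series. No slide held both series, and the labels name no sort for the EPZ6438 cultures, so treatment, gate and slide cannot be told apart between them.

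**Figure D4:**
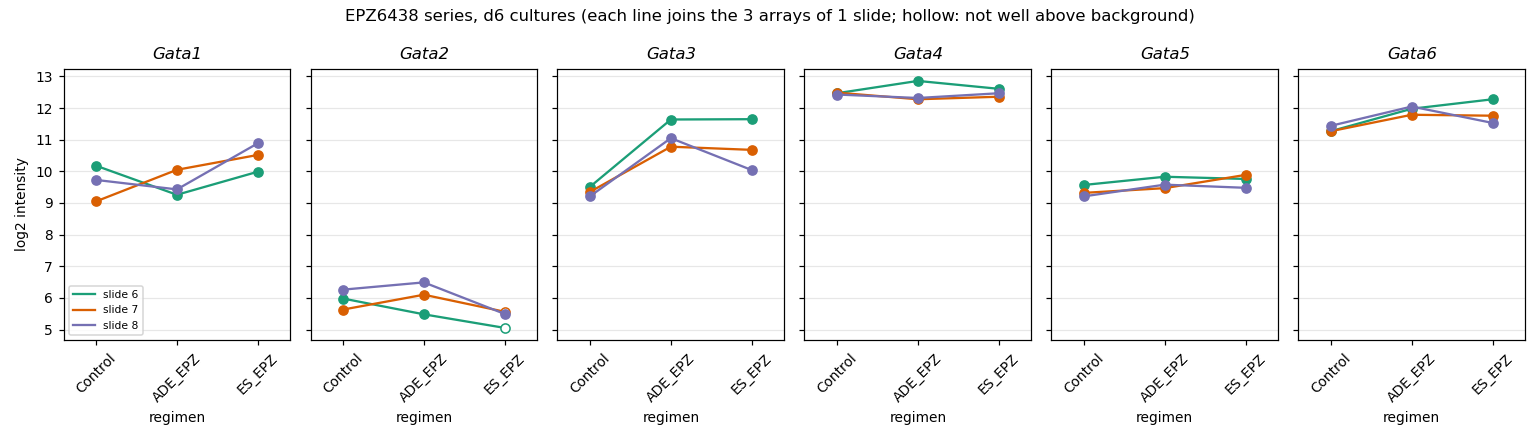
Log2 intensity (y axis) of each GATA gene in the 3 regimens of the EPZ6438 series (x axis), with the 3 arrays of a slide joined by a line; hollow points were not well above background. Gata3 is higher in both treated regimens than in Control on all 3 slides, and Gata4 stays within 12.28 to 12.86.

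GATA factors act with cofactors, and 16 genes of this kind (FOG proteins, LIM domain bridging proteins, other GATA-type zinc finger genes) were measured. Zfpm1, which encodes FOG1, the partner of GATA1 in blood, was the only 1 of the 16 called between the d3 gates, between the d4 gates or between d6G+H+ and ESC, though others were called in d3 and d4 populations against ESC. In these 3 comparisons 1.75%, 2.19% and 10.7% of all genes were called. Zfpm1 was at 9.14 ± 0.65 in ESC, 9.89 ± 0.41 in d3G-, 12.15 ± 0.29 in d3G+ and 12.68 ± 0.27 in d6G+H+. Its differences were 2.26 ± 0.31 between the d3 gates, 1.81 ± 0.31 between the d4 gates and 3.54 ± 0.31 between d6G+H+ and ESC (limma adjusted p = 5.05e-06, 0.000173 and 2.96e-11). Zfpm1 was thus high in d3G+, where Gata1 was above background on 1 of 3 arrays. In ADE_EPZ, 1 of 16 was called lower, Ldb2, a LIM domain bridging factor (-1.65 ± 0.27, limma adjusted p = 9.57e-05), against 2.65% of all genes.

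Partners and targets of GATA4 and GATA6 in extraembryonic endoderm included many genes shared with definitive endoderm. Of 20, 14 were called higher and 2 lower in d6G+H+ than in ESC, against 5.58% and 5.16% of all genes, and the list's median difference was 1.66 against 0 for all genes. The list was chosen with earlier results of these data known and shares Sox17 and Foxa2 with the definitive endoderm markers, so these counts only describe it. The largest rises were in Foxa2 (8.29 ± 0.63) and Sox17 (7.57 ± 0.43), transcription factors of endoderm, and Amot (7.24 ± 0.32), an angiomotin known from visceral endoderm. The 2 lower genes were Lrp2, the endocytic receptor megalin (-2.85 ± 0.38), and Lama1, a laminin chain of basement membrane (-2.69 ± 0.65). At d3, 2 were called higher in d3G+ (Pdgfra, 4.26 ± 0.46, a receptor of primitive endoderm and mesoderm, and Amot, 2.07 ± 0.32) and 1 lower (Lrp2, -1.57 ± 0.38), with a median of 0.12 against 0.01. At d4, 4 were called higher, led by Pdgfra (3.25 ± 0.46), Sox17 (2.38 ± 0.43) and Amot (1.98 ± 0.32). The shares of all genes called were 1.75% at d3 and 2.19% at d4. Sox17 (2.97 ± 0.43) and Hnf4a (2.55 ± 0.39), a nuclear receptor of visceral endoderm and liver, were called between d5Ghigh and d5Glow. No GATA member was called there, and 0.251% of all genes were. In the EPZ6438 series 1 of 20 was called, Cited1, a transcriptional coactivator, higher in ADE_EPZ (1.52 ± 0.36), against 2.65% of all genes called there. Among 5 visceral endoderm markers, Ttr (4.30 ± 0.55) and Apoa1 (3.64 ± 0.25), which encode secreted transport proteins, were called higher in d6G+H+ than in ESC, and 4 of 5 were above background on all d6G+H+ arrays. Afp was below background on all of them. The sum of the 5 was 240 to 296 in ESC and 954 to 1980 in d6G+H+.

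Of 16 cardiac partners and targets, 1 was called higher at d3, Mesp1, the early mesoderm factor (4.94 ± 0.72), and 3 at d4, Mesp1 (3.21 ± 0.72), Myl7, an atrial myosin light chain (2.93 ± 0.59), and Tbx20, a cardiac T-box factor (2.04 ± 0.49). The list's medians were 1.32 at d3 and 1.24 at d4, against 0.01 and 0.02 for all genes. Mesp1 was at 13.15 ± 0.64 in d3G+ and 4.83 ± 0.53 in d6G+H+, where 1 of 3 arrays was above background. In d6G+H+ 4 were called above ESC, with Myocd, a muscle coactivator, at 5.81 ± 0.33, Isl1, a LIM homeobox factor, at 3.68 ± 0.33 and Myl7 at 3.50 ± 0.59, and 1 lower, Bmp4, a signalling ligand (-5.55 ± 0.68). In ADE_EPZ 3 were called lower than in Control: Bmp4 (-3.77 ± 0.68), Tbx5, a cardiac T-box factor (-2.46 ± 0.39), and Smarcd3, a chromatin remodelling subunit of heart (-2.40 ± 0.61), although the median of the list was 0.30. In ES_EPZ 1 was called higher, Nppb, a natriuretic peptide (1.97 ± 0.32). Called among all genes were 1.75% at d3, 2.19% at d4, 5.58% higher and 5.16% lower in d6G+H+, 2.65% in ADE_EPZ and 0.404% in ES_EPZ.

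Of 18 blood and vessel partners and targets of GATA1 and GATA2, 0 were called by limma between the d3 gates (4 had an unadjusted p under 0.05), and 1 higher and 1 lower at d4 (Etv2, an endothelial and blood ETS factor, 1.80 ± 0.39, and Cd34, a surface marker of blood progenitors, -2.25 ± 0.46). In d6G+H+ 3 were called above ESC, Runx1 (3.19 ± 0.46), a blood stem cell factor, Kit (2.49 ± 0.34), a growth factor receptor, and Nfe2 (1.62 ± 0.21), a partner of red cell enhancers, and Cd34 lower (-2.12 ± 0.46). The list's median was -0.04 against 0 for all genes. Shares of all genes called were 1.75% between the d3 gates, 2.19% at d4, and 5.58% higher and 5.16% lower in d6G+H+. Runx1 was at 10.49 ± 0.10 in d6G+H+ but already at 9.33 ± 1.28 in d5G-, where Gata1 was above background on 1 of 3 arrays. In ADE_EPZ 1 of 18 was called, Etv2, which was lower (-2.20 ± 0.39), against 2.65% of all genes. Among 16 trophoblast and surface ectoderm partners of GATA2 and GATA3, 0 were called by limma at d3 (4 had an unadjusted p under 0.05) and 5 higher and 1 lower in d6G+H+ than in ESC: the keratin genes Krt7 (3.16 ± 0.63) and Krt8 (2.61 ± 0.44) and Ascl2 (2.42 ± 0.44), a helix-loop-helix factor of trophoblast, led the rise and Cdx2 (-2.85 ± 0.72), a caudal homeobox factor, fell. At d4 Tead4, a partner of YAP in trophoblast, was called higher (1.67 ± 0.34). Elf5, an ETS factor of trophoblast, was called higher in d5Ghigh than in d5Glow (2.06 ± 0.35) and in d6G+H+ than in ESC (2.03 ± 0.35). For comparison, 1.75% of all genes were called at d3, 2.19% at d4, 0.251% between d5Ghigh and d5Glow and 10.7% between d6G+H+ and ESC. Of 5 trophoblast markers 3 were above background on all d6G+H+ arrays, and Cdx2 and Tpbpa were below on all. Their sum was 299 to 468 in ESC and 360 to 547 in d6G+H+.

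Likeness of pattern was measured as the Pearson correlation of 14 group means, a description in which the groups share slides and cultures. Among the members Gata4 and Gata6 were most alike (r = 0.95), followed by Gata3 and Gata6 (r = 0.906) and Gata3 and Gata4 (r = 0.884), and Gata1 and Gata2 were least alike (r = -0.686). The genes most like Gata6 were Lhx1 (r = 0.99), Gsc, Cyp26a1 and Plxna2. Gsc is the gene whose reporter defined the gates, and the part of the sort in the likeness of Gata6 to Gsc was not tested. Gata4 was most like Cxcr4 (r = 0.99), Adamts9, Them5 and Cthrc1, and Gata3 most like Sox4 (r = 0.98), Papss1 and Myl7. Gata1 was most like Tmc4, Creb3l1, Casr and Car4 (r = 0.98 for each). Gata2 had less close matches, led by Fam181b (r = 0.90), Mesp2 (r = 0.88) and Map3k6 and Insyn1 (r = 0.87). For Gata5 the closest was Galns (r = 0.98), then Zfp790, Gpr182 and Ppp3cc. Its means lay at 8.32 to 8.86 in the untreated groups and 9.37 to 9.71 in the EPZ6438 series, so these correlations carry the offset between both series.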

How the data were processed

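The authors deposited 1 scanner file per array and 1 table of log2 intensity. The deposited scanner files give each spot's foreground and local background as intensity, besides quality marks. Per the methods the authors applied limma's normexp (offset 10) and quantile normalisation, and the table correlated at 0.999985 or more with values rebuilt that way. Its 59305 spots that are not controls were averaged to 55681 probes, 432 of them printed more than once. RefSeq accessions on 29123 probes gave 22278 genes, named through RefSeq (GRCm38.p6), and the brightest probe over all 42 arrays stood for a gene.

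A limma (3.58.1, in R 4.3.3) model with 1 mean per group was fitted to the 42 arrays, with Benjamini-Hochberg adjustment across 55681 probes. Values after ± are SE for differences and SD (n = 3) for levels. Permuting 3 arrays against 3 gives no p under 0.1. Lower bounds on a fold were set against the dimmest probes above background. The members, gene lists and tests were chosen with earlier results of these data known. Named list genes are the 3 with the largest called change in each direction. Genes alike are the 4 with the highest correlation, of which 1 is not reported here. Levels of Zfpm1, Mesp1 and Runx1, and Hba-x, Afp, Ttr, Apoa1, Tpbpa and Elf5 on d6, were chosen after their values were seen.

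Same-numbered replicates deviated together (all 3 correlations over 0.1) between the gates of d3, of d4 and of d6, and between d5Glow and either d5G- or d5Ghigh. They also did so between d5Ghigh and d4G+ or d6G+H-, and between both EPZ6438 regimens. There the numbers were taken as pairs, but only in the replicate block and in comparisons of same-numbered arrays. The main fit held no block, so its SEs, intervals and p-values leave this pairing out. Alternatives were other background corrections, scaling by the 75th percentile, quantile normalisation within a series, a filter, slide and replicate blocks, fits to fewer arrays, other probe rules, a threshold of 0.05 and leaving out each array. The procedure was tested on simulated data. Precision is limited by 3 arrays per group and, for dim probes, by background.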

Additional observations from a re-analysis of the deposited data

Results flagged for a closer look

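For Gata1 the difference from Gsc-negative cells was larger for the Gsc-high gate of d5 than for the Gsc-positive gate of d3. It was -0.09 at d3 and 3.01 at d5 (d5Ghigh against d5G-), and the test of the change itself gave 3.10 ± 0.50 (limma adjusted p = 0.000539). Of 6 members this was the only one called, against 0.548% of all genes. It ranged from 2.93 to 3.23 when each array was left out, and under scaling by the 75th percentile it was 3.32 ± 0.76 with a limma adjusted p of 0.0359. Gata1 was above background on 0 of 3 d3G-, 1 of 3 d3G+ and 1 of 3 d5G- arrays, so the d3 difference compares readings near background and the size of the change is uncertain. The gates also differ, because d5 was split into Gsc-low and Gsc-high cells and d3 was not, so day and gate change together. The d5Glow difference from d5G- was 1.82 ± 0.35, and the change of the Gsc-positive gate from d3 to d4, 1.54 ± 0.50, was not called.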

How the results depend on the processing

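Over 24 comparisons of 6 members, 41 of 144 results were called. Under 14 alternative settings 27 of these calls held throughout, and 32 held when each array was left out. No called result changed sign in these fits. Members called between the d4 gates numbered 4 with slide as a fixed block and 4 as a random block. In ADE_EPZ against Control 1 member (Gata3) was called under 6 settings: slide as a fixed block, slide as a random block, the replicate block, only the arrays of the compared groups, only those of the same series, and an adjusted p of 0.05. With arrays left out, called members ranged from 2 to 3 at d3, 2 to 3 at d4, 0 to 1 in d5Ghigh against d5Glow, 4 to 5 in d6G+H+ against ESC, 0 to 0 in ADE_EPZ and 0 to 0 in ES_EPZ. The replicate block gave 3 members at d4, lost no call and gained 5. In d5Ghigh against d5G-, where the numbers were not taken as pairs, it called Gata3. The fall of Gata2 in d6G+H- and in d6G+H+ was not called with a normexp offset of 50 or without background correction. In d6G+H+ the fall was also not called with slide as a fixed or random block or with only the compared groups fitted. Gata1 was called lower than ESC in d2, d3G-, d3G+ and d4G- with scaling by the 75th percentile. That scaling moved the median of all genes to 0.115 at d3, -0.112 in d6G+H+ against ESC and -0.103 in ADE_EPZ.

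Counts over all genes moved more. Fitting only the compared groups gave 250 genes in place of 389 between the d3 gates, 332 in place of 517 for d3G- and 602 in place of 934 for d5G- against ESC. It gave 0 in place of 160 for d5Glow and 116 in place of 551 for d5Ghigh against d5G-, 0 in place of 56 between d5Ghigh and d5Glow, 0 in place of 29 and 6 in place of 242 for these against d4G+, 0 in place of 467 for d6G+H- against d5Ghigh, 0 in place of 90 for ES_EPZ against Control, 11 in place of 27 between the EPZ6438 regimens and 22 in place of 122 for the change from d3 to d5. An offset of 50 gave 315 in place of 487 between the d4 gates. With 1 array left out, the counts ran from 273 to 561 between the d4 gates (487), 51 to 384 for d5Glow against d5G- (160), 27 to 127 for d5Ghigh against d5Glow (56), 6 to 80 for d5Glow against d4G+ (29), 249 to 740 for d6G+H- against d5Ghigh (467), 0 to 3 between the d6 gates (0), 13 to 214 for ES_EPZ against Control (90), 19 to 46 between the EPZ6438 regimens (27) and 74 to 127 for the change from d3 to d5 (122). The cause was not tested.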
